A study of Mus musculus with 4 samples.

Results

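Messenger RNA of the genes of MHC class II antigen presentation was read in the whole thymus of C57BL/6 mice, from a line with a miR-181d transgene and a line with a miR-181d knockin allele. miR-181d is a microRNA of the miR-181 family, which is known from immature thymocytes. There were 10 such genes of 19580 named on the array: H2-Aa, H2-Ab1, H2-Eb1, H2-DMa, H2-DMb1, H2-DMb2, H2-Ob, Cd74, Ciita and Ctss, written in capitals in the array design (H2-AA, H2-AB1, H2-EB1, H2-DMA, H2-DMB1, H2-DMB2, H2-OB and CTSS). They were chosen by name, as all probes of the unnormalised bead table whose target name is 1 of these genes or an older name of it, and were read by 18 of 45281 probes. Ciita stands in the table as C2TA. Cd74 stands there as II, from its older name Ii, the invariant chain. The letters II are also an older name of St6galnac2, but that gene has 3 probes under its current name, so the 3 II probes were taken as Cd74. Total RNA of 2 transgenic and 2 knockin samples was read on 1 Illumina MouseWG-6 bead array each. The labels give neither the promoter of the transgene nor the structure of the knockin allele, nor ages, and no wild-type sample enters the comparison, so each value only sets one genotype against the other. They do not say whether arrays of a genotype came from separate animals, so part of the spread between these samples may be technical. The p-values rest on that spread, after the spread of each probe was drawn toward a value shared by all probes.

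MHC class II molecules are pairs of an alpha and a beta chain that carry peptides from the endosomal pathway to the cell surface, where CD4 T cells read them. The invariant chain Cd74 fills the groove of new pairs and leads them to endosomes, where proteases such as cathepsin S (Ctss) trim it to a short stub. H2-DM then exchanges the stub for peptide, H2-O restrains H2-DM, and the transactivator Ciita switches on the genes of the class II chains, Cd74 and H2-DM. In thymus, class II on cortical epithelium supports the selection of CD4 T cells. Class II on medullary epithelium and dendritic cells serves to remove self-reactive ones. B cells and macrophages of the organ carry it too, whereas mouse thymocytes themselves are known to lack it.

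The promoters of several of these genes share the landing site of the Ciita complex, which is known as an X box followed downstream by a Y box. RefSeq promoters of build GRCm38.p6, from 250 bases before to 50 after the start, were found for 7 of the 10 genes (8 promoters); H2-Ab1, Cd74 and Ciita had no entry. The windows below are shown because they let the shared spacing be seen. Capitals mark 2 motifs searched on both strands, TAGNAAC within the X box and TGATTGG within the Y box, where N is any base. The motifs do not overlap in these windows.
H2-Eb1: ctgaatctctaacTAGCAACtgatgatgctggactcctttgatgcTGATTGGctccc
H2-DMb1: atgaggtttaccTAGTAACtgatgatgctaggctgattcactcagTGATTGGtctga
H2-DMb2: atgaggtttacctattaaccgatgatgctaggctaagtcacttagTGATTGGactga
H2-Ob: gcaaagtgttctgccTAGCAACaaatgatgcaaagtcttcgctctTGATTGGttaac
H2-Aa: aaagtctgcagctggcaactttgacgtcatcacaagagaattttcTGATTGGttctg
The windows lie at chr17:34305761-34305817 (plus strand) for H2-Eb1, chr17:34153083-34153139 (plus) for H2-DMb1, chr17:34145112-34145168 (plus) for H2-DMb2, chr17:34238801-34238857 (plus) for H2-Ob and chr17:34287862-34287918 (minus) for H2-Aa. The Y motif was found in 5 of the 8 promoters and in 7.82% of all 32851 promoters of the table. The X motif was found in 3 of the 8 and in 11.4% of all. Both in this order, 10 to 30 bases apart, were found in H2-Eb1, H2-DMb1 and H2-Ob, with gaps of 25, 26 and 23 bases, and in 18 promoters (0.0548%) of the whole table, these 3 included. The letters were chosen after these promoters had been read, so the shares are a description only. The Ctss promoter and both H2-DMa promoters held neither motif, which says only that these letters are not in these windows.

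Each array was taken on a log2 scale after background correction and quantile normalisation, and the genotypes were compared with limma over all probes, with Benjamini-Hochberg adjusted p. Median deposited signal was 140.5 to 145.8, and 39.7% to 41.2% of probes lay above the array's background band, a limit set from the spread of the dim probes (signal 151.4 to 157.6). All 10 thymocyte markers looked at, among them Cd3e, Cd8b1 and Rag1, were above the band on all 4 arrays. Knockin replicate 2 was the only array with low Xist, which is transcribed from the silenced X chromosome of females (normalised log2 signal 5.98 against 12.03 to 12.21), and with high Eif2s3y of the Y chromosome (9.55 against 5.92 to 6.13). Sex therefore differed within the knockin group, and 0 of 5 sex-linked transcripts passed between the genotypes by limma (median log2 difference -0.78), with 1 (Ddx3y) at an unadjusted p under 0.05. The arrays shared 1 slide, with the letters A and B for transgenic and E and F for knockin replicates 1 and 2, so genotype and the part of the slide cannot be told apart. Of the 18 class II probes, 17 were above the band on all arrays and the dimmer Ciita probe on 3.

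No class II presentation gene passed the test between the genotypes. By limma 0 of 18 probes had an adjusted p under 0.05, where 0.0795% of all probes did (36 probes), and the smallest adjusted p among the 18 was 0.626. At an unadjusted limma p under 0.05 there were 3 of the 18, against 4.63% of all probes. Among probes above the band on all arrays the share was larger, at 1403 of 16688. Mean log2 signal was lower in transgenic thymus for 16 of the 18 probes and for 9 of the 10 genes on their brightest probe, and 49.6% of all probes above the band were lower. The median difference over the 10 genes was -0.15 on the log2 scale, transgenic minus knockin, against 0.00079 over all probes. Transgenic and knockin arrays did not overlap in 3 of the 18 probes, all of them lower in transgenic thymus, where 16.3% of all probes did so in that direction and 16.4% in the other. In 15 of the 18 probes the arrays of at least 1 genotype differed from each other by more than the genotype means did, and so they did in 78.5% of all probes.

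**Figure D1:**
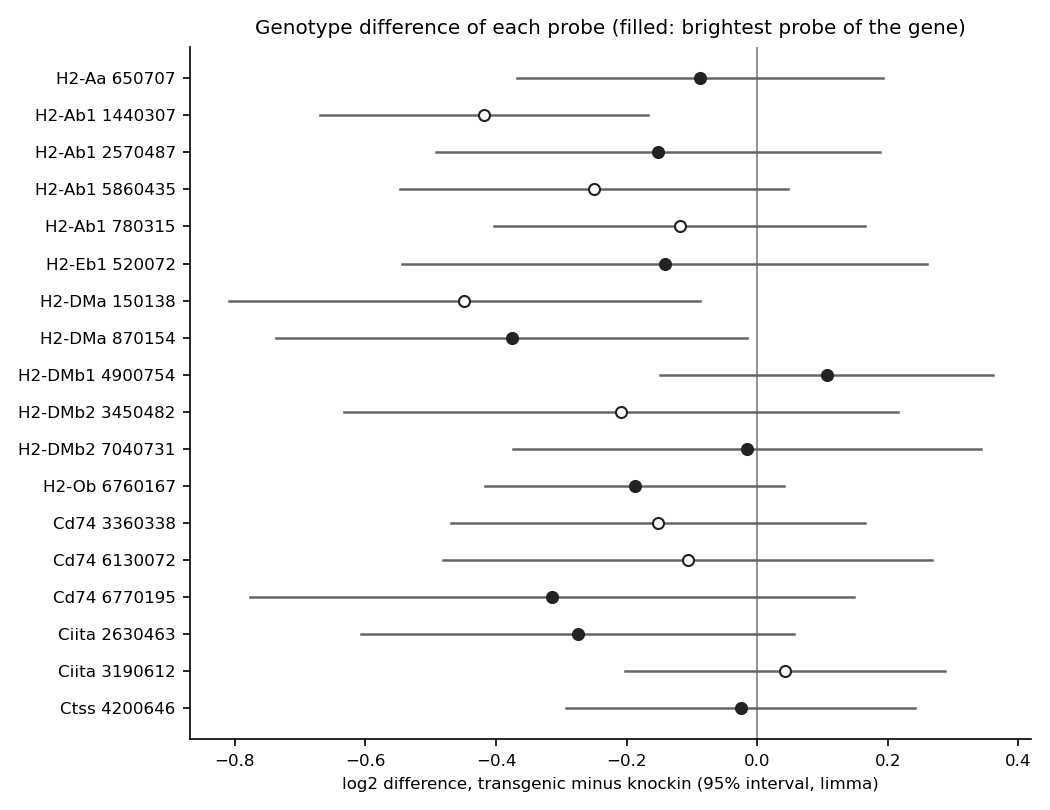
Difference between the genotypes for each of the 18 probes, as log2 transgenic minus knockin with its 95% limma interval; filled points are the brightest probe of each gene. Most intervals cross 0, and the exceptions are 1 probe of H2-Ab1 and both probes of H2-DMa, none of which passed after adjustment.

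The classical chains came first in the pathway. H2-Aa, the alpha chain of the I-A molecule, had normalised log2 signals of 11.37 and 11.54 on transgenic replicates 1 and 2 and 11.40 and 11.69 on knockin replicates 1 and 2. The groups overlapped, and the difference was -0.09 (SE 0.125, 95% interval -0.37 to 0.19, n = 2 arrays per group). H2-Ab1 encodes the beta chain that pairs with it and was read by 4 probes. On the brightest, signals were 13.63 and 13.27 in transgenic and 13.43 and 13.77 in knockin thymus, a difference of -0.15 (interval -0.49 to 0.19). Transgenic replicate 2 was the lowest array on all 4 H2-Ab1 probes and knockin replicate 2 the highest.

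The H2-Ab1 probes did not give 1 answer. Probe 1440307 read 12.76 and 12.74 on the transgenic and 13.06 and 13.28 on the knockin arrays, with no overlap, and its difference was -0.42 (SE 0.112, interval -0.67 to -0.17, unadjusted p = 0.00418, limma adjusted p = 0.626). That is 1.34-fold lower signal in transgenic thymus. Probes 5860435 and 780315 of the same gene had differences of -0.25 and -0.12 with overlapping groups.

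H2-Eb1 is the beta chain of the I-E molecule, whose alpha chain H2-Ea is known not to be made in C57BL/6 mice. The H2-Ea probe was not above the band on any array. H2-Eb1 itself was bright, with deposited signals of 6957 and 4975 in transgenic and 5395 and 8915 in knockin thymus, or 12.73, 12.37, 12.42 and 12.96 as normalised log2 signal. Transgenic replicate 1 and knockin replicate 2 were above the other arrays. The genotype difference of -0.14 (SE 0.179, interval -0.54 to 0.26) was smaller than the gaps of 0.36 within the transgenic and 0.54 within the knockin arrays.

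Cd74, the invariant chain, had the largest spread over arrays of all 18 probes. On its brightest probe the deposited signal was 11357 and 7504 in transgenic and 9693 and 15913 in knockin thymus, and the normalised log2 signal 13.47, 13.00, 13.23 and 13.86. Knockin replicate 2 was thus 1.82-fold above transgenic replicate 2. The genotype difference was -0.31 (SE 0.206, interval -0.78 to 0.15). The other Cd74 probes had differences of -0.15 and -0.11. On all 3 probes transgenic replicate 2 was the lowest array.

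**Figure D2:**
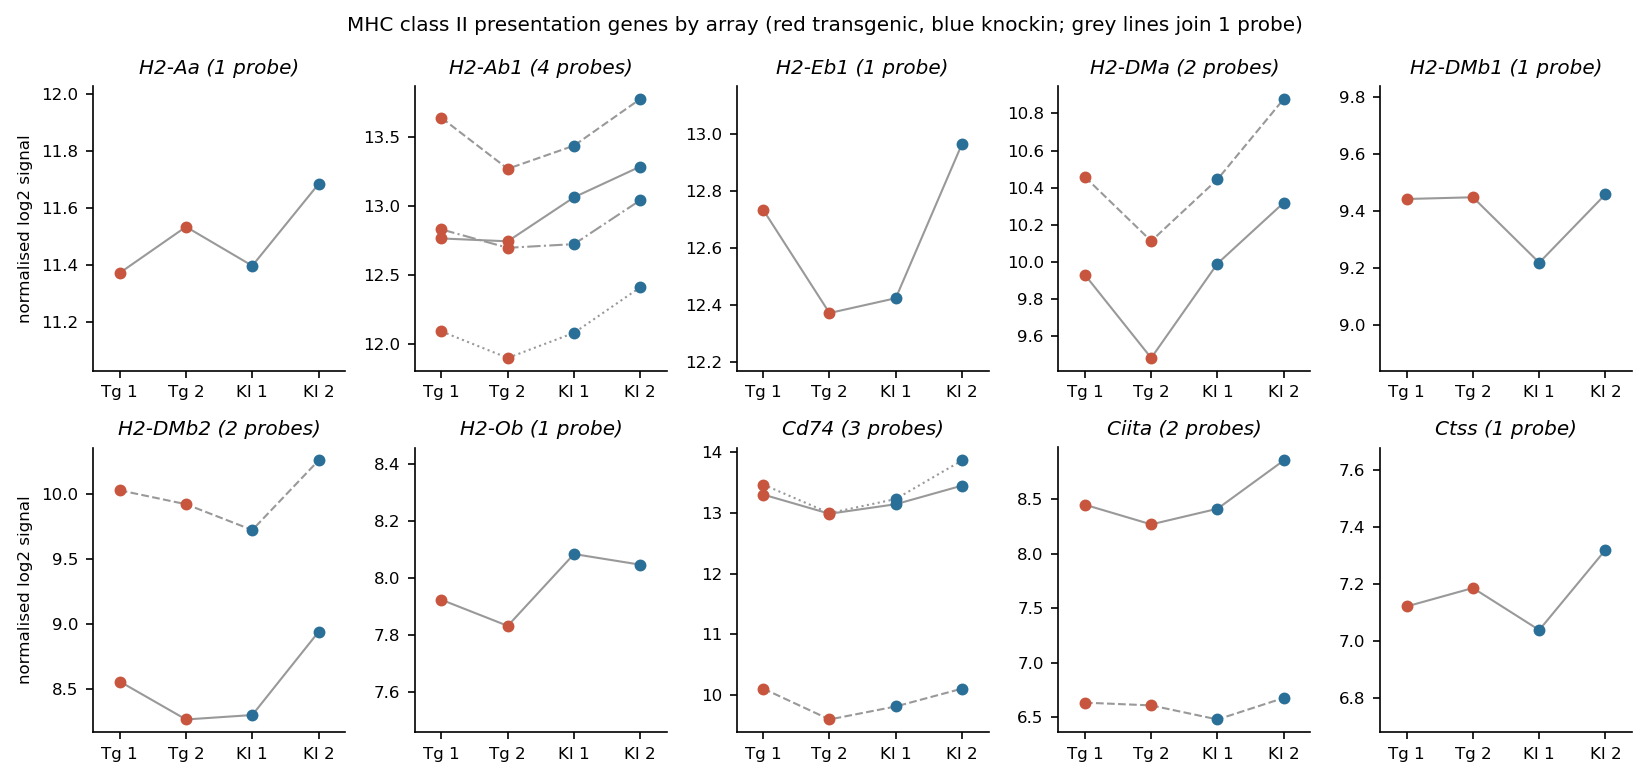
Normalised log2 signal of every probe of the 10 genes on the transgenic (Tg, red) and knockin (KI, blue) arrays; each line joins the values of 1 probe. Knockin replicate 2 is the highest array for 16 of the 18 probes, and transgenic replicate 2 the lowest for 13.

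Among the peptide editors, H2-DMa had the most negative differences. This alpha chain of H2-DM read 10.46 and 10.11 in transgenic and 10.45 and 10.88 in knockin thymus on its brighter probe, a difference of -0.38 (SE 0.161, interval -0.74 to -0.01, unadjusted p = 0.0429, limma adjusted p = 1.00). Transgenic replicate 1 and knockin replicate 1 differed by little, so the groups overlapped. On the dimmer probe signals were 9.93, 9.48, 9.99 and 10.32 in the same order, without overlap, and the difference was -0.45 (SE 0.161, interval -0.81 to -0.09, adjusted p = 0.989).

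The beta chains of H2-DM are encoded by neighbouring gene copies, and near-identical sequence means that a probe of one may also read the other. H2-DMb1 was 9.44 and 9.45 in transgenic and 9.22 and 9.46 in knockin thymus, so that knockin replicate 1 alone was low. Its difference of 0.11 (SE 0.114, interval -0.15 to 0.36) was the only positive one among the brightest probes. H2-DMb2 was 10.03, 9.92, 9.72 and 10.26 on its brighter probe, with a difference of -0.02 (interval -0.37 to 0.34). Its dimmer probe had -0.21 (interval -0.63 to 0.22), with knockin arrays 0.64 apart.

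H2-Ob, the beta chain of the H2-DM inhibitor H2-O, departed from the rest in its array order. It read 7.92 and 7.83 in transgenic and 8.09 and 8.05 in knockin thymus, so the groups did not overlap and knockin replicate 1 was highest. The difference of -0.19 (SE 0.102, interval -0.42 to 0.04) did not pass (adjusted p = 1.00). Its partner chain H2-Oa, which is not 1 of the 10 genes, was above the band on all arrays and went the other way, at 10.30 and 10.50 in transgenic and 10.14 and 10.21 in knockin thymus (difference 0.22, adjusted p = 1.00).

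Ciita, the transactivator, was read at 8.45 and 8.27 in transgenic and 8.41 and 8.85 in knockin thymus on its brighter probe. Knockin replicate 2 stood above the other arrays, and the difference was -0.27 (SE 0.148, interval -0.61 to 0.06). On the dimmer Ciita probe, which lay at the edge of the background band (deposited signal 152.2 to 174.6), the difference was 0.04. Ctss, the protease, lay a little above the band, at 7.12 and 7.18 in transgenic and 7.04 and 7.32 in knockin thymus, with a difference of -0.03 (SE 0.120, interval -0.29 to 0.24). The offset in the background correction compresses differences of such dim probes.

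Over the brightest probes the 95% intervals ran down to -0.78 for Cd74 and up to 0.36 for H2-DMb1. Single genes had narrower intervals, such as -0.42 to 0.04 for H2-Ob. With 2 arrays per genotype the data set no narrower limits for a gene than its own interval. The direction of the median hung on knockin replicate 2, the array with Y-linked signal. When it was left out, the median difference over the 10 genes was 0.035, and H2-Aa, H2-Ab1, H2-Eb1, H2-DMb2 and Ctss changed sign. H2-DMa (-0.16), H2-Ob (-0.21), Cd74 (-0.00019) and Ciita stayed lower in transgenic thymus. Leaving out transgenic replicate 2 also changed the sign of H2-Ab1, H2-Eb1 and H2-DMb2. The median was -0.073 without transgenic replicate 2, -0.28 without transgenic replicate 1 and -0.30 without knockin replicate 1.

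The class II probes also shared part of their order over the arrays, which is described here after it had been seen. Knockin replicate 2 was the highest array for 16 of the 18 probes, against 24.7% of all probes above the band on all arrays. Transgenic replicate 2 was the lowest for 13 of 18, against 28.7%. After quantile normalisation, transgenic replicate 1 and knockin replicate 2 were both above the other arrays for 12 of 18, against 22.2%. Transgenic replicate 1 and knockin replicate 2 carry the slide letters A and F, and the other arrays B and E. The part of the place on the slide in this order was not tested. Taking each gene around its own mean, the median over the 10 genes was 0.015 and -0.18 for transgenic replicates 1 and 2, and -0.11 and 0.26 for knockin replicates 1 and 2. The probes are not independent, since several read the same gene. In bulk tissue, fewer cells that carry class II and less class II RNA per cell cannot be told apart, and with 1 male array the part of sex in this order was not tested.

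The genotype direction did not depend on the scaling: 16 of 18 probes were lower in transgenic thymus with quantile, median and loess scaling and without background correction. The share of the array order did depend on it. With median scaling, transgenic replicate 1 and knockin replicate 2 were above the other arrays for 15 of 18 probes. The share was then 47.7% of all probes above the band. In the deposited signal it was 17 of 18, against 59.0%. These 2 arrays had the higher median deposited signal (145.8 and 145.7, against 140.5 and 141.7).

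Genes that work beside the class II set had no member that passed. In the list of endosomal processing genes 0 of 10 passed in either direction, and the median difference was -0.043. The thiol reductase Ifi30 had a difference of -0.17 and the same array order as Cd74 (9.60, 9.32, 9.36 and 9.89 on transgenic replicates 1 and 2 and knockin replicates 1 and 2). The cathepsins Ctsh and Ctsd had differences of -0.16 and 0.23, but Ctsd was above the band on only 2 arrays. Among 9 measured genes of class II transcription and turnover 0 passed, with a median of -0.043. These include Rfx5 (0.20), a subunit of the RFX complex that binds the X box and here below the band on every array, as well as Creb1 (0.17) and the Y box factor Nfyc (-0.14). Marchf1 and Marchf8 were not found by name, because some target names of the table have been turned into dates.

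Interferon-gamma is the classical inducer of Ciita outside professional antigen-presenting cells. Of 9 genes on that route 0 passed, and the median was -0.064. The kinase Jak1 was at 0.27 (unadjusted p = 0.0363, limma adjusted p = 1.00), the feedback inhibitor Socs1 at -0.29, and Ifng itself was below the band on every array. Of 7 costimulatory and checkpoint ligands 0 passed, with a median of -0.070, and Cd86, Icosl and Icam1 had differences of -0.20, 0.17 and -0.17. The further class II chains H2-Oa, H2-Eb2 and H2-Ea gave 0 of 3, at 0.22, -0.15 and -0.16. At an unadjusted limma p under 0.05 there was 1 gene in these 5 lists, Jak1.

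Markers of the cell types that can carry class II also had no member past the threshold. Dendritic cell markers (0 of 14, median -0.048) had a summed normalised signal of 3258 to 3496 on the transgenic and 3264 to 3875 on the knockin arrays. Of these markers 6, among them Itgax, Flt3 and Zbtb46, were not above the band on any array. Clec9a, a receptor of cross-presenting dendritic cells, was above it and had a difference of -0.22. Ccl17 and Siglech, also above it on all 4 arrays, went the other way (0.24 and 0.21, groups overlapping). Of the 14 markers 9 were lower and 5 higher in transgenic thymus. B cell markers (0 of 10, median -0.13) summed to 1582 to 1696 in transgenic and 1670 to 1792 in knockin thymus, with Ms4a1, Pax5 and Cr2 below the band on every array. Cd79a, a chain of the B cell receptor complex, and the kinase Blk were at -0.28 and -0.18. Cd79b and Spib, above the band on all 4 arrays, were at 0.049 and 0.072 with overlapping groups. Of the 10 markers 7 were lower and 3 higher in transgenic thymus. The summed B cell signal was highest on knockin replicate 1, but 6 of the 10 markers were highest on knockin replicate 2. With each marker above the band on all arrays taken around its own mean, the median was 0.070 and 0.082 on knockin replicates 1 and 2.

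Macrophage markers (0 of 11, median -0.073) summed to 11642 to 13022 in transgenic and 11754 to 13795 in knockin thymus. Csf1r, the receptor of macrophage growth factor, had a difference of -0.35 and read 7.83, 7.43, 7.70 and 8.24 in the order used above. Timd4, an uptake receptor for dying cells, was at -0.35 (limma adjusted p = 0.786) and Fcgr1, above the band on only 2 arrays, at -0.21. Cortical epithelial markers (0 of 8, median -0.0021) summed to 26659 to 28271 in transgenic and 27169 to 31998 in knockin thymus. Prss16, a serine protease of cortical epithelium, was at -0.21, Tbata at -0.23 and Psmb11 at 0.12, and Foxn1 and Dll4 were below the band on every array. Medullary epithelial markers (0 of 10, median 0.0068) summed to 9667 to 10044 in transgenic and 9107 to 10188 in knockin thymus. Krt14 was at 0.16, Tnfrsf11a at -0.080 and Ivl at -0.085, and Epcam was below the band on every array. The dendritic cell, cortical epithelial, medullary epithelial and macrophage lists were all highest on knockin replicate 2 in summed signal, as the class II genes were, and their part in the class II values was not tested. For the cortical list this rested on its brightest gene, Tbata, at 13.56, 13.57, 13.57 and 14.02 in the order used above. Knockin replicate 2 was highest for 5 of the 8 cortical genes, whereas Ccl25 and Psmb11 were highest on transgenic replicate 2. At an unadjusted limma p under 0.05 there were 2 B cell markers, 1 macrophage marker (Timd4), and no dendritic or epithelial cell marker.

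Thymocyte markers (0 of 10, median -0.031) did not share that order. They summed to 75515 to 79264 in transgenic and 77391 to 83383 in knockin thymus, with knockin replicate 1 highest, and Cd3e, Rag1 and Cd8b1 had differences of -0.22, -0.14 and -0.11. Granulocyte markers were the only list with calls: S100a9, S100a8 and Camp were lower in transgenic thymus (3 of 6, list median -1.19), at -1.50, -1.37 and -1.17. Their summed signal of 3306 to 3915 in transgenic against 8476 to 9773 in knockin thymus followed the genotype.

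**Figure D3:**
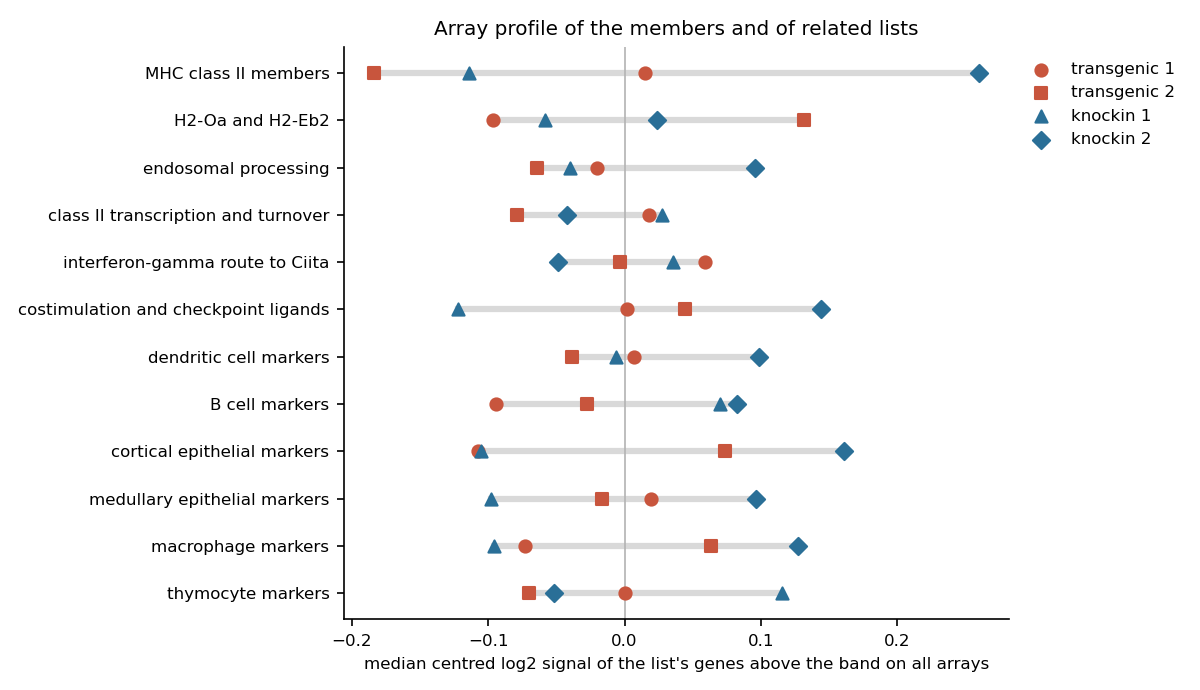
Median centred log2 signal on each array for the 10 class II genes and for 11 related lists, over the genes of each list above the background band on all arrays; shapes mark the arrays, red transgenic and blue knockin. The class II genes span -0.18 to 0.26; granulocyte and sex-linked genes are not drawn.

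In the gene order of the RefSeq annotation, 7 of the 10 genes stand within a run of 12 genes on chromosome 17, from H2-DMa to H2-Eb1. Ctss, Ciita and Cd74 lie on chromosomes 3, 16 and 18. The 4 other measured genes of the run serve MHC class I: the immunoproteasome subunits Psmb9 and Psmb8 and the peptide transporters Tap1 and Tap2. Tap1 read 9.09 and 8.98 in transgenic and 8.50 and 8.81 in knockin thymus, higher in transgenic thymus without overlap (difference 0.38, limma adjusted p = 0.883). Psmb9, Psmb8 and Tap2 had differences of 0.096, -0.13 and -0.047.

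Among 9647 other genes above the band on all arrays, the array profiles nearest to the class II median profile were those of Gstt3, Aurkb, Gjb2, Sfxn1 and Ednra. Likeness was the root mean square distance of centred log2 values over the 4 arrays. It was 0.012 to 0.017 for these genes and 0.061 (H2-Ab1) to 0.16 (H2-DMb1) for the class II genes themselves; the 5 were picked as the nearest, so the gap between these ranges was fixed by the choice. Gstt3 is a glutathione transferase, Aurkb a mitotic kinase, Gjb2 a gap junction protein, Sfxn1 a mitochondrial sideroflexin and Ednra an endothelin receptor. With 4 arrays such likeness is a description of these samples only.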

How the data were processed

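Whole thymus RNA of 2 transgenic and 2 knockin samples was grouped by the sample titles, and arrays were matched to samples by the array name in the descriptions. Per the file headers, the deposited table was written by GenomeStudio 1.9.0 without normalization and holds the average bead signal intensity per probe, with no detection p-value. The authors' deposited value table holds processed intensity, and the sources used here do not give the method. Its identifiers could not be paired with gene names, so it served only for a count of probes, on log2(value + 8). From the bead table, background was corrected with normexp (offset 50), log2 values were quantile-normalized, and limma 3.58.1 in R 4.3.3 (lmFit, eBayes) was fitted over all 45281 probes, two-sided, with Benjamini-Hochberg adjustment and a threshold of 0.05. The code was tested on simulated data. The background band of an array lies 3 SDs above its most common log2 signal, with the SD taken from dimmer probes.

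Target names were matched to RefSeq symbols (GRCm38.p6), 22864 probes by symbol and 11920 by synonym. The probe with the highest mean stood for a gene. Members and lists were chosen with earlier results of these data known. Named beside the 10 genes were the sex-linked transcripts, per list the 3 genes of smallest p and the 5 genes nearest in array profile. Class I neighbours, Epcam, genes below the band and list genes that went the other way were named after their values were seen. A gene that this rule names is not reported here. Precision is limited by the number of arrays. Alternatives were other background, normalization, variance and filter settings, blocks, leaving out each array and the mean of a gene's probes.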

Additional observations from a re-analysis of the deposited data

How the results depend on the processing

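Of all probes, 36 passed as reported, 3 without background correction, 70 with an offset of 16, 2 with median scaling, 112 with an intensity trend and robust prior, 62 with dim probes left out, 364 with the replicate numbers crossed (transgenic 1 with knockin 2) as a block (added after seeing the data), 0 in the authors' value table, and 24 to 88 when single arrays were left out. Class II probes that passed stayed at 0 in every alternative except the crossed block, with 1 (lower in transgenic thymus, where 0.378% of all probes passed in that direction). With the replicate number as a block the counts were 38 of all probes and 0 class II probes. Nothing in the labels says that equal numbers pair samples, and the gap between replicates 1 and 2 correlated at r = -0.36 between the genotypes across 16688 probes, which are not independent replicates. Genes of the related lists that passed numbered 3 as reported, 0 without background correction and 0 with median scaling, 6 with an offset of 16, 5 with the trend, 5 with dim probes left out, 10 with the crossed block and 3 to 10 when single arrays were left out. S100a9, S100a8 and Camp missed the threshold without background correction (adjusted p = 0.155 for each) and with median scaling (0.115, 0.115 and 0.200). The median class II difference ranged from -0.30 to 0.035 over the left-out arrays. Differences changed sign on leaving out an array for H2-Aa (-0.23 to 0.057), H2-Ab1 (-0.33 to 0.027), H2-Eb1 (-0.42 to 0.12), H2-DMb1 (-0.014 to 0.23), H2-DMb2 (-0.28 to 0.25) and Ctss (-0.17 to 0.11), and on dimmer probes for H2-Ab1 780315 (-0.28 to 0.043), H2-DMb2 (-0.53 to 0.11), Cd74 3360338 (-0.32 to 0.0046), Cd74 6130072 (-0.36 to 0.15) and Ciita (-0.056 to 0.14). The same held for Ctsh (-0.35 to 0.048), Ifi30 (-0.43 to 0.098), Icam1 (-0.35 to 0.020), Psmb11 (-0.038 to 0.28), Tnfrsf11a (-0.26 to 0.10), Xist (-0.056 to 6.15), Eif2s3y (-3.53 to 0.13), Kdm5d (-1.63 to 0.040), Gstt3 (-0.37 to 0.013), Aurkb (-0.36 to 0.046), Gjb2 (-0.31 to 0.045), Sfxn1 (-0.35 to 0.025) and Ednra (-0.33 to 0.067). Creb1 was at -0.011 with the mean of its probes. Apart from leaving out arrays, fewer samples being the construction of those settings, the causes were not tested. The authors' value table gave no value for single genes.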

Other observations

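Some genes of endosomes and myeloid cells outside the class II set, named after their values were seen, were also highest on knockin replicate 2. None of them passed the limma test. In the lists they came from, that array was highest for 6 of 10 endosomal, 7 of 14 dendritic cell and 6 of 11 macrophage genes. Other genes of these lists differed: Adgre1, Cd163, C1qa and Ctsl were highest on transgenic replicate 2, and Timd4 on knockin replicate 1. Cd68, a lysosomal protein of macrophages, read 9.18 and 8.43 on transgenic replicates 1 and 2 and 8.92 and 9.27 on knockin replicates 1 and 2, the array order of Cd74. Sirpa, a receptor of macrophages and of a dendritic cell subset, had that order too, at 10.31, 10.04, 10.13 and 10.59. The endosomal protease Lgmn (10.18, 10.07, 9.82 and 10.46) and Irf8, a transcription factor of dendritic cells (8.63, 8.44, 8.29 and 8.73), were lowest on knockin replicate 1 instead. C1qb, a complement subunit made by macrophages, was lowest on transgenic replicate 1 and read 11.37, 11.60, 11.43 and 11.65 in the order above.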
